A study of Mustela putorius furo and Mus musculus with 4 samples.

Results

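Serine is made from a glycolytic intermediate in 3 steps, and its carbon then enters the folate cycle, which hands single carbon units to purine, thymidylate and methionine synthesis. The enzymes of the folate cycle exist in a cytosolic and a mitochondrial set, so that formate made in mitochondria can be used in the cytosol. In the brain, astrocytes are a main site of serine synthesis and supply serine to neurons, and one enzyme of the cytosolic folate set, Aldh1l1, is a widely used astrocyte marker. The genes described here are the 10 that encode the core of this route, namely Phgdh, Psat1 and Psph for serine synthesis, Shmt1 and Shmt2 for the conversion of serine to glycine, Mthfd1 and Aldh1l1 for the cytosolic folate steps, and Mthfd2, Mthfd1l and Aldh1l2 for the mitochondrial ones. They were chosen by symbol from the literature on the pathway, out of 13373 gene symbols shared by the 2 species. Earlier results of these data were known when the choice was made. Each of the 10 had exactly 1 value in every library, none was 0, and all 10 passed the filter on low values.

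RNA-seq was performed on primary astrocytes from the cerebral cortex of P1 ferrets (2 libraries) and of P1 to P3 mice of the ICR strain (2 libraries). The ferrets were pigmented animals of a commercial colony and the mice were wild type, and neither group carried an engineered allele. Cortical cells were grown for 14 days as mixed glia in medium with 10% fetal bovine serum, shaken to remove loose cells and replated. Before RNA was taken, both species were moved to serum-free medium with heparin-binding EGF-like growth factor and N-acetyl cysteine. Cells of 1 ferret pup filled several flasks, whereas several mouse pups were pooled in 1 flask, and the sources used here do not say whether the 2 libraries of a species came from separate cultures. The p-values therefore measure the spread between these libraries, which may be technical.

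The deposited values are FPKM (fragments scaled by exon length and by the mapped fragments of the library), each species on its own genome annotation. FPKM hold no read numbers, and the depth of the libraries was not analysed here, apart from its ratio within a species as read from the lowest FPKM, which was 1.17 for ferret replicate 1 over 2 and 0.835 for mouse replicate 1 over 2. Over the shared symbols FPKM summed to 227391 and 236543 in the ferret and to 300465 and 308122 in the mouse libraries. Over every annotated gene, symbols of 1 species alone included, the sums were 238385 and 247918 in ferret and 525962 and 535899 in mouse, and the rescalings used below rest on the shared symbols. The species were compared with limma on log2(FPKM + 1) over the 10204 genes whose mean FPKM reached 1 or more in either species, and this scale understates the differences of low genes. A gene was called at an adjusted p under 0.05 (Benjamini-Hochberg over all 10204 genes) with an absolute log2 difference above 1. The median log2 difference of all genes tested, ferret minus mouse, was -0.35, and it was -0.01 when the libraries were rescaled to their mean sum and 0.05 after quantile normalization. Of all calls, 30.3% were higher in ferret astrocytes with FPKM as deposited, 46.9% after rescaling and 49.8% after quantile normalization. Each member is therefore also given relative to the median of all genes. Species, genome annotation and culture cannot be told apart in this design.

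Of the 10 genes, 1 (Mthfd1) was called higher and 3 (Psat1, Aldh1l1 and Mthfd2) were called lower in ferret astrocytes, while 6 were not called. Among all 10204 genes, 13.1% were called higher, 30.1% lower and 43.2% in either direction, so the counts of the 10 genes were close to the background. By the adjusted p alone 3 of the 10 genes were higher and 4 lower, where 32.4% and 56.2% of all genes, 88.6% in sum, passed. The median log2 difference of the 10 genes was -0.12, against -0.35 for all genes. The genes did not share a direction, and their log2 differences ran from -2.95 for Aldh1l1 to 1.07 for Mthfd1. The ferret and mouse libraries did not overlap in 9 of the 10 genes, with Shmt2 as the exception, and 94.1% of all genes tested did not overlap either.

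**Figure D1:**
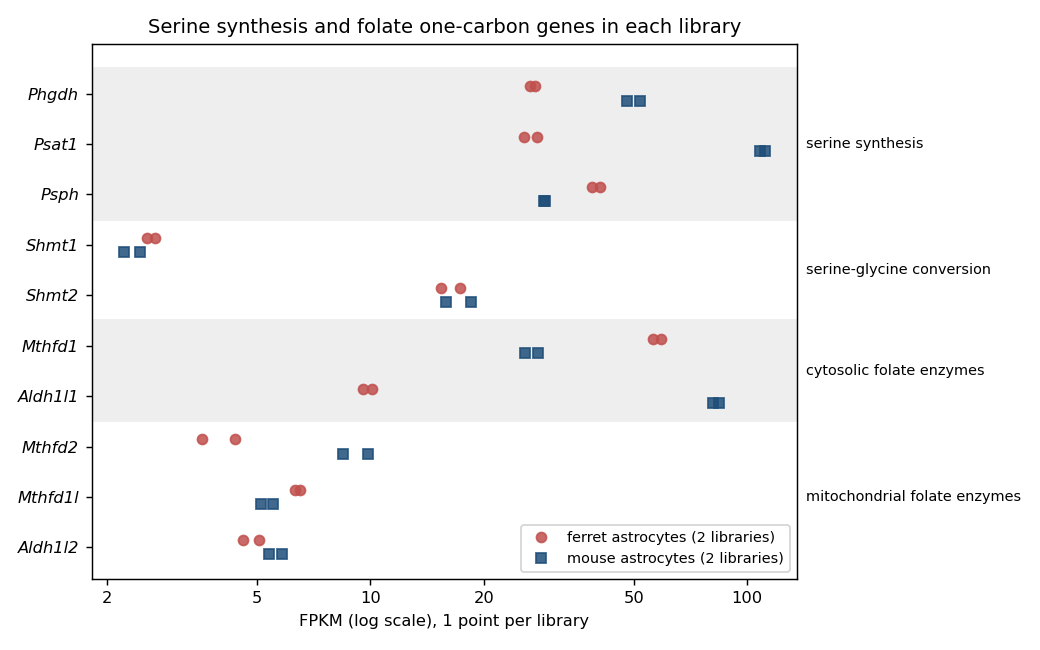
FPKM of the 10 genes on a log axis, with 1 point for each of the 2 ferret libraries (circles) and 2 mouse libraries (squares), and genes grouped by their role. Psat1, Phgdh, Aldh1l1 and Mthfd2 lie to the left in ferret astrocytes, Mthfd1 and Psph lie to the right, and the libraries of Shmt2 overlap.

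The 3 enzymes of serine synthesis were expressed in both species but in a different order. Phgdh, the dehydrogenase that takes 3-phosphoglycerate into the pathway, had 26.5 and 27.4 FPKM in ferret and 48.0 and 51.8 FPKM in mouse astrocytes. Psat1, the transaminase of the middle step, had 27.8 and 25.6 FPKM in ferret and 108 and 112 FPKM in mouse astrocytes. Psph, the phosphatase that releases free serine, had 40.7 and 38.7 FPKM in ferret and 28.8 and 29.0 FPKM in mouse astrocytes. Thus both ferret libraries were below both mouse libraries for the first pair of enzymes and above them for the last enzyme.

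Psat1 was 4.12-fold lower in ferret astrocytes by mean FPKM, and its log2 difference was -2.00 (standard error, SE, 0.062, adjusted p = 1.15e-09 by limma), or -1.65 relative to the median of all genes. A lower difference than that of Psat1 was seen in 10.8% of the genes tested. Phgdh had a log2 value of -0.86 for the difference (SE 0.063, adjusted p = 5.35e-07), which passed the adjusted p but not the limit on size, and -0.51 relative to the median of all genes. Psph had a log2 value of 0.44 for the difference (SE 0.059, adjusted p = 5.57e-05), also under the limit on size, and 0.79 relative to that median. Under each of the 4 rescalings tried, Psat1 and Phgdh kept a lower and Psph a higher value in ferret astrocytes.

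The make-up of the 3 transcripts does not depend on the scaling between libraries. Psat1 made up 29.2% and 27.9% of their summed FPKM in ferret astrocytes, against 58.5% and 58.0% in mouse astrocytes. Psph made up 42.8% and 42.2% in the ferret and 15.6% and 15.1% in the mouse libraries. Phgdh held a similar part throughout, at 27.9% and 29.9% in the ferret and 25.9% and 27.0% in the mouse libraries. The main transcript of serine synthesis was thus Psph in ferret and Psat1 in mouse astrocytes, and the sum of the 3 was 94.9 and 91.7 FPKM against 185 and 192 FPKM.

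**Figure D2:**
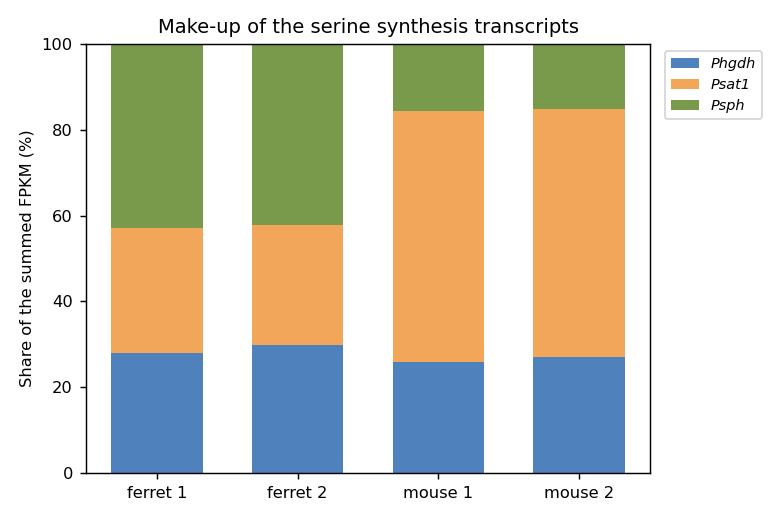
Stacked bars show the share (%) of Phgdh, Psat1 and Psph in the summed FPKM of these 3 genes, with 1 bar for each library. Psat1 takes 58.5% and 58.0% in the mouse libraries against 29.2% and 27.9% in the ferret libraries, where Psph is the largest part.

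Mouse Phgdh lies on chromosome 3 of GRCm38 from 98313170 to 98339990, Psat1 on chromosome 19 from 15904678 to 15947337 and Psph on chromosome 5 from 129765558 to 129787449, all on the minus strand. The longest annotated coding sequences have 12, 9 and 8 exons and 1599, 1110 and 675 coding bases. Mouse Phgdh has annotated copies elsewhere in the genome. Of the windows of its transcripts that are as long as a sequencing read, 37.0% also occur in transcripts of 6 other annotated genes, whose FPKM summed to 10.4 and 10.7 in the mouse libraries. For Psph 21.6% of windows also occur in transcripts of Cct6a, a chaperonin subunit gene on the opposite strand with 106 and 105 FPKM. For Psat1 0% of windows did. How reads of such windows were split, and whether strand was used in the quantification, is not given in the sources used here, so the mouse values of Phgdh and Psph are less certain than that of Psat1.

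The hydroxymethyltransferases Shmt1 and Shmt2, which pass a carbon from serine to folate in the cytosol and in mitochondria, differed little in FPKM between the species. Shmt1 was the lowest of the 10 genes in each species, with 2.55 and 2.69 FPKM in ferret and 2.22 and 2.45 FPKM in mouse astrocytes. Shmt2 had 15.4 and 17.3 FPKM in ferret and 18.5 and 15.9 FPKM in mouse astrocytes. The libraries of the species lay apart by a small gap for Shmt1 and overlapped for Shmt2.

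The log2 difference was 0.12 for Shmt1 (95% interval -0.06 to 0.30, adjusted p = 0.176 by limma) and -0.07 for Shmt2 (95% interval -0.26 to 0.12, adjusted p = 0.462). Both intervals lay well inside the limits of -1 and 1. Relative to the median of all genes the values were 0.47 and 0.28, and with the libraries rescaled to their mean sum they were 0.40 (adjusted p = 0.00138) and 0.30 (adjusted p = 0.0147), so the sign of Shmt2 depended on the scaling. Mouse Shmt1 lies on chromosome 11 from 60788104 to 60811718 and Shmt2 on chromosome 10 from 127517123 to 127522444, both on the minus strand. Of the windows of Shmt1, 3.05% also occur in transcripts of Smcr8 on the opposite strand, and none of any of the 10 genes occur in another of the 10.

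The cytosolic folate enzymes held both extremes of the pathway. Mthfd1, a trifunctional enzyme that interconverts formate and the folate carriers used for purines and thymidylate, had 56.2 and 59.0 FPKM in ferret and 25.8 and 27.9 FPKM in mouse astrocytes. Aldh1l1, which oxidises the carbon of 10-formyltetrahydrofolate to carbon dioxide, had 10.1 and 9.60 FPKM in ferret and 81.2 and 84.3 FPKM in mouse astrocytes. Both species thus had 1 of the pair at a high level, Mthfd1 in ferret and Aldh1l1 in mouse astrocytes.

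Mthfd1 was 2.15-fold higher in ferret astrocytes by mean FPKM, and its log2 difference was 1.07 (SE 0.064, adjusted p = 1.14e-07 by limma), or 1.42 relative to the median of all genes. Aldh1l1 was 8.39-fold lower, and its log2 difference was -2.95 (SE 0.061, adjusted p = 1.03e-10), or -2.60 relative to that median. Only 3.91% of the genes tested had a lower difference than Aldh1l1, and 88.1% had a lower one than Mthfd1. Among the shared symbols of a library, ranked from the highest FPKM, Mthfd1 stood at 791 and 778 in ferret and at 2552 and 2417 in mouse astrocytes, and Aldh1l1 at 4405 and 4645 in ferret and at 652 and 644 in mouse astrocytes. Both genes kept their call when any 1 library was left out and under each of the 4 rescalings.

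Aldh1l1 is used as an astrocyte marker, and other markers of the cell type were read beside it. Of 9 other astrocyte markers, 5 were called lower and 1 (S100b) higher in ferret astrocytes. Gfap, the intermediate filament gene of astrocytes, had 1481 and 1522 FPKM in ferret and 1429 and 1546 FPKM in mouse astrocytes. Slc1a2, a glutamate transporter, had 0.133 and 0.178 FPKM against 47.1 and 51.8, so a defining marker was near 0 in the ferret libraries. The list summed to 3566 and 3664 FPKM in ferret and to 3177 and 3445 in mouse astrocytes. Most of each sum came from Gfap and Aldoc. Aldoc had 1619 and 1700 FPKM in ferret and 916 and 1015 FPKM in mouse astrocytes. By sign, 6 of the 9 markers were lower and 3 were higher in ferret astrocytes. In RNA of whole cultures, fewer cells of a type and less RNA per cell cannot be told apart.

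Markers of other cell types also differed. Of 9 microglial markers tested all 9 were called lower in ferret astrocytes, with sums of 5.86 to 6.38 FPKM against 440 to 466 FPKM in mouse astrocytes, and Cx3cr1 stood at 0 in each ferret library. Of 7 meningeal fibroblast markers all 7 were called lower, with sums of 108 to 122 against 1528 to 1551 FPKM. Of 7 oligodendrocyte lineage markers tested 3 were called higher, with sums over the shared symbols of 89.0 to 95.8 against 21.3 to 23.4 FPKM. These sums leave out Olig1, which had 107 and 117 FPKM in mouse astrocytes and no shared symbol. Olig2 had a lower mean in ferret astrocytes (5.05 against 9.71 FPKM) and was not called. The neuronal list summed to 29.1 to 30.4 FPKM in ferret and to 32.0 to 33.2 FPKM in mouse astrocytes, with 2 of 3 tested genes called higher. Most of each sum came from Map2, which was not called, with means of 18.9 against 30.8 FPKM. The called genes were Nefl, with means of 5.05 against 0.115 FPKM, and Syt1, with 5.02 against 1.19 FPKM. The endothelial list summed to 0.210 to 0.288 FPKM in ferret and to 23.0 to 23.5 FPKM in mouse astrocytes. Nearly all of the mouse sum came from Cdh5, which was 0 in each ferret library. Pecam1 and Cldn5 were near 0 in every library. The part of such cells in the differences of the 10 genes was not tested.

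Mouse Mthfd1 lies on chromosome 12 from 76255298 to 76319803 and Aldh1l1 on chromosome 6 from 90486427 to 90600203, both on the plus strand. Their longest coding sequences span 28 and 23 exons with 2805 and 2706 coding bases. Of their windows, 0% of Mthfd1 and 0.34% of Aldh1l1 occur in transcripts of other genes. The gene models of the ferret were not used here.

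The mitochondrial folate enzymes differed less, apart from Mthfd2. Mthfd2, the dehydrogenase and cyclohydrolase that is typical of embryonic and dividing cells, had 3.59 and 4.37 FPKM in ferret and 9.85 and 8.49 FPKM in mouse astrocytes. Mthfd1l, the ligase that releases formate from mitochondria, had 6.32 and 6.50 FPKM in ferret and 5.14 and 5.51 FPKM in mouse astrocytes. Aldh1l2, the mitochondrial counterpart of Aldh1l1, had 4.60 and 5.08 FPKM in ferret and 5.84 and 5.40 FPKM in mouse astrocytes. The libraries of the species did not overlap in any of the 3, as in 94.1% of all genes tested, but the gap was wide for Mthfd2 alone.

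Mthfd2 was 2.30-fold lower in ferret astrocytes by mean FPKM, and its log2 difference was -1.03 (SE 0.099, 95% interval -1.25 to -0.81, adjusted p = 4.35e-06 by limma). This lay just past the limit of 1, and relative to the median of all genes it was -0.68. The call was lost without ferret replicate 1 (-0.92) and without mouse replicate 1 (-0.94), and it was lost after rescaling to the mean library sum (-0.70), although the adjusted p stayed under 0.05 in each case. Mthfd1l had a log2 difference of 0.23 (adjusted p = 0.0146), or 0.58 relative to the median of all genes. Aldh1l2 had -0.18 (95% interval -0.36 to -0.00087, adjusted p = 0.0552) with FPKM as deposited and 0.15 (adjusted p = 0.105) after rescaling, so its sign depended on the scaling. Relative to the median of all genes it was 0.17.

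Mouse Mthfd2 lies on chromosome 6 from 83305691 to 83325908 (minus strand), Mthfd1l on chromosome 10 from 3973118 to 4167081 (plus strand) and Aldh1l2 on chromosome 10 from 83487450 to 83534140 (minus strand). They have 8, 28 and 23 exons and 1050, 2931 and 2769 coding bases. Of the windows of Aldh1l2, 16.1% occur in D10Wsu102e on the opposite strand, a gene with 0.289 and 0.303 FPKM, and of the other pair 0% occur elsewhere.

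**Figure D3:**
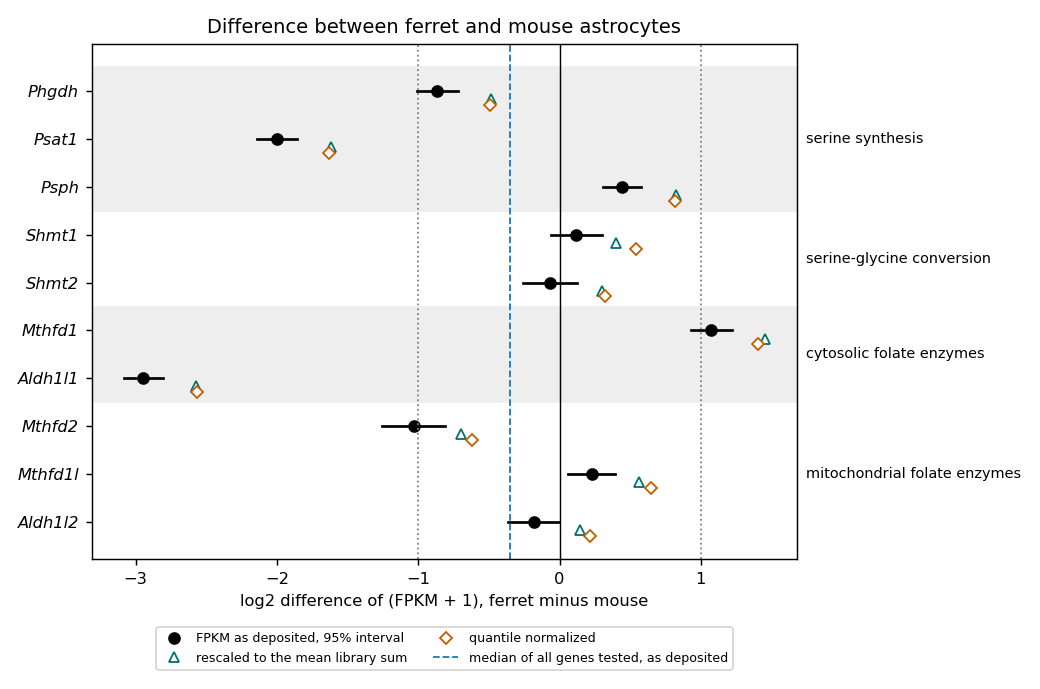
Log2 difference of (FPKM + 1), ferret minus mouse, for the 10 genes. Filled circles with lines are values as deposited with 95% intervals, triangles are values rescaled to the mean library sum, diamonds are quantile normalized values, dotted lines mark the limits of -1 and 1, and the dashed line marks the median of all genes tested (-0.35). Psat1 and Aldh1l1 stay below -1 and Mthfd1 above 1 throughout, Mthfd2 crosses the limit, and Shmt2 and Aldh1l2 cross 0.

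FPKM are per length, so levels of different genes can be set in order within a species. Such an order still rests on the gene models of each species, and the mouse values of Phgdh and Psph are less certain because of their shared windows. In ferret astrocytes the order from the highest mean was Mthfd1 (57.6 FPKM), Psph (39.7), Phgdh (27.0), Psat1 (26.7), Shmt2 (16.3), Aldh1l1 (9.86), Mthfd1l (6.41), Aldh1l2 (4.84), Mthfd2 (3.98) and Shmt1 (2.62). In this order the libraries of Phgdh and Psat1 overlapped, and all other neighbours lay apart. In mouse astrocytes the order was Psat1 (110 FPKM), Aldh1l1 (82.8), Phgdh (49.9), Psph (28.9), Mthfd1 (26.8), Shmt2 (17.2), Mthfd2 (9.17), Aldh1l2 (5.62), Mthfd1l (5.33) and Shmt1 (2.34). Here the libraries of Aldh1l2 and Mthfd1l overlapped, and all other neighbours lay apart. Mthfd1, the highest gene in ferret astrocytes, was at place 5 in mouse astrocytes, and Psat1, the highest in mouse astrocytes, was at place 4 in ferret astrocytes.

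Ratios between 2 genes of the same library are free of any scaling between libraries, though they still rest on the gene models of each species. The ratio of Mthfd1 to Aldh1l1 was 5.55 and 6.14 in ferret and 0.317 and 0.331 in mouse astrocytes, a log2 difference of 4.17 and the widest of the 8 ratios compared. The ratio of Psat1 to Psph was 0.683 and 0.661 in ferret against 3.75 and 3.85 in mouse astrocytes, a log2 difference of -2.50. These 2 ratios were chosen after the values were seen. The remaining 6 set counterparts of the route against each other.

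In ferret astrocytes the mitochondrial enzymes Mthfd2 and Mthfd1l stood lower against the same cytosolic gene, Mthfd1, while Aldh1l2 stood higher against Aldh1l1. The ratio of Mthfd2 to Mthfd1 was 0.0638 and 0.0742 in ferret and 0.382 and 0.304 in mouse astrocytes, 4.96-fold lower in ferret astrocytes. The ratio of Mthfd1l to Mthfd1 was 0.112 and 0.110 against 0.200 and 0.197, 1.78-fold lower. The ratio of Aldh1l2 to Aldh1l1 was 0.454 and 0.529 against 0.0719 and 0.0640, 7.22-fold higher. In the first 2 cases the denominator Mthfd1 was higher in ferret astrocytes, and in the last the denominator Aldh1l1 was lower. In the first case the numerator Mthfd2 was also lower in ferret astrocytes, with means of 3.98 against 9.17 FPKM. In the second case the numerator Mthfd1l was higher, with means of 6.41 against 5.33 FPKM.

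The ratio of Shmt2 to Shmt1 was 6.04 and 6.41 in ferret against 8.33 and 6.49 in mouse astrocytes, a log2 difference of -0.24 that was smaller than the spread of the mouse libraries (SD 0.26 on the log2 scale, n = 2). Within serine synthesis, the ratio of Phgdh to Psat1 was 0.954 and 1.07 against 0.444 and 0.465, and that of Phgdh to Psph was 0.652 and 0.709 against 1.66 and 1.79. Apart from Shmt2 to Shmt1, every ratio differed between the species by more than the spread of its replicates. An exact permutation test of 2 against 2 libraries cannot give a two-sided p below 0.333, which was the value for each of the 8 ratios and also after adjustment over them.

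**Figure D4:**
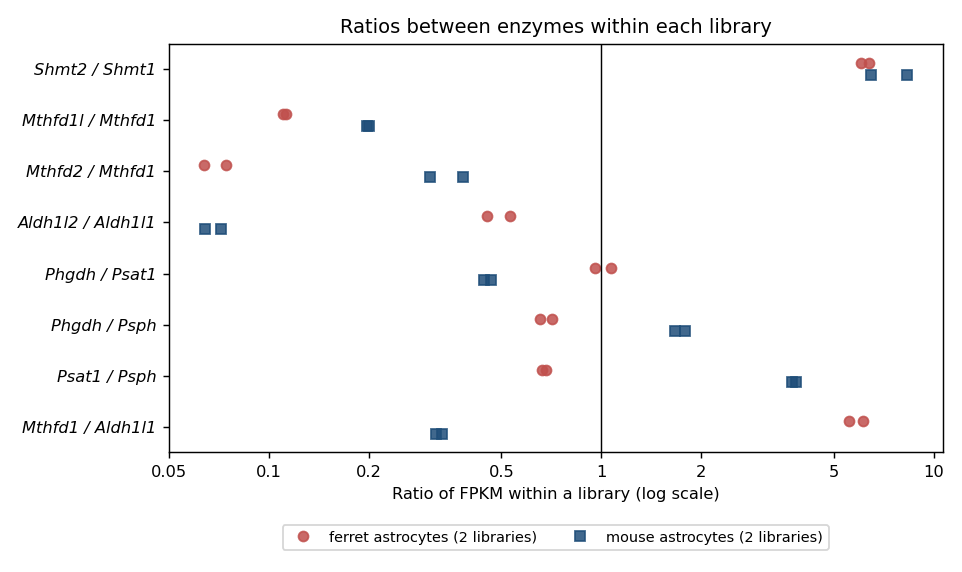
Ratio of the FPKM of 2 genes within a library, on a log axis, with 1 point for each of the 2 ferret (circles) and 2 mouse libraries (squares). Mthfd1 to Aldh1l1 lies at 5.55 and 6.14 in ferret against 0.317 and 0.331 in mouse astrocytes, and the ratios of Shmt2 to Shmt1 lie close together.

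The surrounding pathway was read from 7 lists of 63 genes, of which 53 had a shared symbol and 49 were tested. In these lists 6 genes were called higher and 17 lower in ferret astrocytes, and 26 were not called. The median log2 difference of the 49 genes was -0.19. As for the 10 core genes, the counts lay near the background of 13.1% higher and 30.1% lower.

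Genes that bring folate into the cell and hold it there held 3 genes called lower and 1 called higher in ferret astrocytes among 6 tested. Folr1, a folate receptor, was listed at 0 in ferret astrocytes throughout and had 3.80 and 3.55 FPKM in mouse astrocytes. Slc46a1, the proton-coupled folate transporter, had 2.03 and 2.07 FPKM in ferret and 5.83 and 6.21 FPKM in mouse astrocytes (log2 difference -1.20, adjusted p = 1.65e-07 by limma). Folr2, a folate receptor that macrophages also express, had 0.157 and 0.0554 FPKM in ferret and 1.46 and 1.51 FPKM in mouse astrocytes (log2 difference -1.17, adjusted p = 3.62e-07). The call of Slc46a1 was lost after rescaling to the mean library sum (-0.90), and after quantile normalization those of Slc46a1 (-0.78) and Folr2 (-0.95) were lost.

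Ggh, the hydrolase that trims the glutamate tail from stored folate, went the other way, with 74.0 and 72.9 FPKM in ferret and 23.2 and 23.5 FPKM in mouse astrocytes (log2 difference 1.61, adjusted p = 2.56e-09 by limma). Fpgs, the synthase that adds this tail, had means of 6.49 and 7.50 FPKM and was not called. Slc19a1, the reduced folate carrier, had 5.58 and 7.36 FPKM and was not called either. Among the other folate enzymes 1 of 4 tested was called lower. It was Mthfd2l, a relative of Mthfd2, with 2.02 and 1.98 FPKM against 4.72 and 5.86 (log2 difference -1.06, adjusted p = 2.71e-06), and the call was lost without mouse replicate 2 and after rescaling. Tyms, the thymidylate synthase, had means of 10.2 and 10.8 FPKM and a log2 difference of -0.08 (adjusted p = 0.265).

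The glycine cleavage system, which takes glycine apart in mitochondria, differed among its parts. Amt, its aminomethyltransferase, had 3.87 and 5.19 FPKM in ferret and 18.3 and 19.5 FPKM in mouse astrocytes (log2 difference -1.86, adjusted p = 8.79e-08 by limma). Gldc, its glycine decarboxylase, had 31.8 and 33.1 FPKM against 19.9 and 21.7, a log2 difference of 0.62 that was under the limit on size as deposited and just past it after quantile normalization. Dld, the lipoamide dehydrogenase it shares with other complexes, had means of 55.7 and 63.6 FPKM and was not called. Of the 3 genes tested, 1 was thus called lower and 0 higher.

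In the methionine cycle and transsulfuration 2 of 7 genes tested were called lower and 1 higher. Mtr, the methionine synthase that takes its carbon from folate, had 2.64 and 2.47 FPKM in ferret and 12.3 and 13.7 FPKM in mouse astrocytes (log2 difference -1.98, adjusted p = 6.17e-09 by limma). Cth, the cystathionine lyase that makes cysteine, had 3.56 and 3.57 FPKM against 11.2 and 12.1 (log2 difference -1.47, adjusted p = 3.16e-08). Ahcyl2, a relative of the adenosylhomocysteinase gene Ahcy, had 64.7 and 65.3 FPKM against 23.1 and 26.9 (log2 difference 1.35, adjusted p = 7.01e-08). Ahcy itself was not called as deposited, with means of 29.5 and 17.2 FPKM and a log2 difference of 0.75, but was called higher after rescaling to the mean library sum (1.12).

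Of the 6 genes of purine synthesis, a main user of folate carbon, none was called by limma in either direction, while 4 passed the adjusted p on the higher side and 1 on the lower side, and 6 had an unadjusted p under 0.05. Gart and Atic, which use 10-formyltetrahydrofolate directly, had log2 differences of 0.27 and 0.32. Paics had the largest difference in the list, at -0.89 (adjusted p = 1.56e-07), with means of 49.7 FPKM in ferret and 93.2 in mouse astrocytes. The median of the list was 0.29, against -0.35 for all genes.

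Genes that move or use serine and glycine held 5 calls on the lower and 2 on the higher side among 11 tested. Srr, the racemase that makes D-serine, had 1.77 and 1.70 FPKM in ferret and 23.2 and 26.7 FPKM in mouse astrocytes (log2 difference -3.24, adjusted p = 3.48e-10 by limma), 14.4-fold lower by mean FPKM. Slc1a4, a neutral amino acid transporter that carries serine, had 7.98 and 8.11 FPKM against 26.5 and 26.8 (log2 difference -1.61, adjusted p = 5.08e-09). Sptlc2, a subunit of the palmitoyltransferase that starts sphingolipids from serine, had 7.26 and 7.65 FPKM against 38.1 and 36.9 (log2 difference -2.19, adjusted p = 7.45e-10). Slc1a5, a related neutral amino acid transporter, went the other way and was called higher, with 8.52 and 8.20 FPKM against 3.35 and 3.20 (log2 difference 1.13, adjusted p = 2.05e-07). Among these 4 genes, all of them called, both directions were thus seen. The ferret and mouse libraries overlapped in none of them, and 94.1% of all genes tested did not overlap either. Slc6a9 and Sfxn1 of the same list, which were not called, did overlap.

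Sideroflexins showed both directions. Sfxn1, the transporter that brings serine into mitochondria, had 18.0 and 18.5 FPKM in ferret and 18.0 and 19.2 FPKM in mouse astrocytes (log2 difference -0.03, adjusted p = 0.711 by limma). Sfxn2 had 7.70 and 8.02 FPKM against 0.972 and 1.29 and was called higher (log2 difference 2.06, adjusted p = 1.15e-08). Sfxn3 had 3.89 and 3.23 FPKM against 26.3 and 28.6 and was called lower (log2 difference -2.64, adjusted p = 1.57e-09). The libraries overlapped for Sfxn1 and lay far apart for the other two.

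ATF4 is a transcription factor that is known to drive serine synthesis genes and Mthfd2 under amino acid shortage, and a list of its other known targets was read alongside. Of 12 genes tested 5 were called lower and 2 higher in ferret astrocytes. Atf5, a related transcription factor, had 3.28 and 4.03 FPKM in ferret and 63.7 and 66.9 FPKM in mouse astrocytes (log2 difference -3.84, adjusted p = 1.29e-10 by limma). Ddit3, which encodes CHOP, had 4.23 and 4.82 FPKM against 32.6 and 30.6 (log2 difference -2.56, adjusted p = 8.33e-10). Chac1, Slc3a2 and Sesn2 were also called lower. Sesn2 lay just past the limit, and its call was lost under each of the 4 rescalings (-0.69 to -0.57), without ferret replicate 1 (-0.95) and without mouse replicate 2 (-0.998). Asns, the asparagine synthetase, had means of 14.9 and 21.4 FPKM (log2 difference -0.49) and was not called, nor was Trib3 (log2 difference 0.11).

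The 2 higher genes of that list were Vldlr, a lipoprotein receptor, and Slc7a11, the cystine and glutamate exchanger. Vldlr had 85.3 and 92.7 FPKM in ferret and 4.53 and 3.96 FPKM in mouse astrocytes (log2 difference 4.10, adjusted p = 5.27e-11 by limma). Slc7a11 had 95.3 and 104 FPKM against 15.2 and 13.7 (6.90-fold by the means, adjusted p = 3.99e-10). Slc3a2, the chain with which the exchanger pairs, was lower, with means of 63.4 and 232 FPKM. The list thus held calls in each direction, where 30.1% of all genes tested were called lower and 13.1% higher. A part of ATF4 in the differences of the 10 core genes was not tested.

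Cell division draws on folate carbon, and 13 division genes were tested beside the pathway. Of these 2 were called lower (Cdk1 and Ccne2) and 0 higher, with a median log2 difference of 0.20. Pcna, the sliding clamp of DNA replication, had means of 84.1 and 47.7 FPKM (log2 difference 0.81), and Rrm2, a ribonucleotide reductase subunit, had 28.7 and 15.7 FPKM (log2 difference 0.83). Cdk1, the mitotic kinase, had 5.91 and 26.7 FPKM (log2 difference -2.00, adjusted p = 2.24e-09 by limma). With the libraries rescaled to their mean sum 3 genes of this list were called higher, so the count depended on the scaling.

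**Figure D5:**
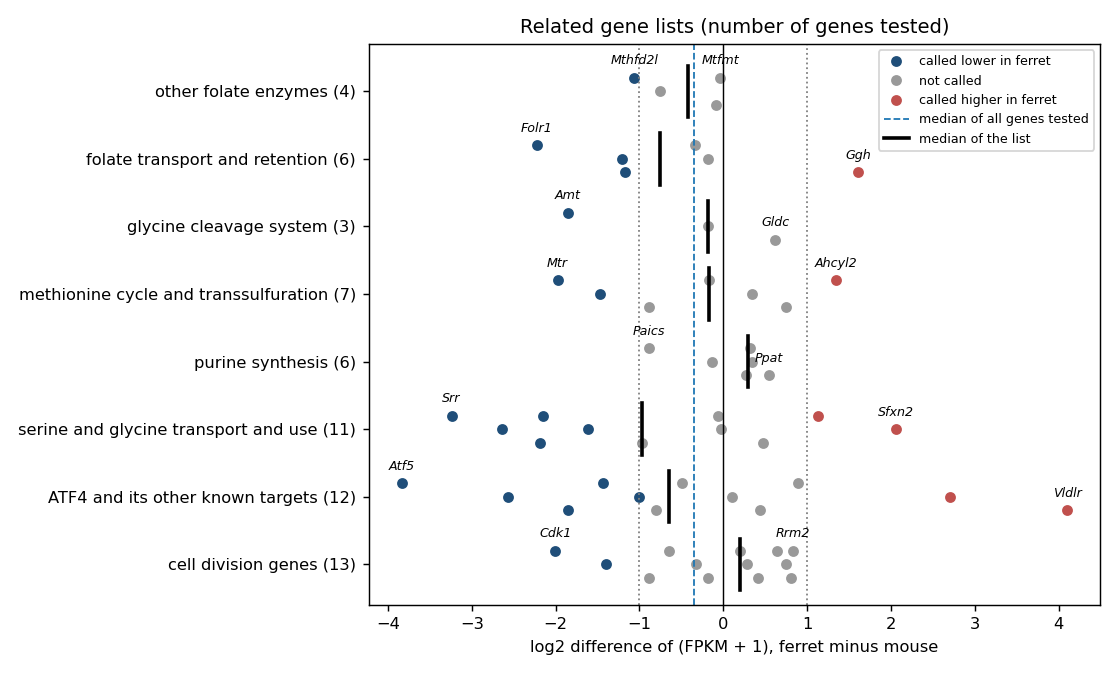
Log2 difference of (FPKM + 1), ferret minus mouse, with FPKM as deposited, for the genes tested in 8 related lists. Each point is 1 gene (blue called lower, red called higher, grey not called), black bars are list medians, the dashed line is the median of all genes tested (-0.35) and dotted lines mark -1 and 1. The lowest and highest gene of each list is named, from Atf5 at -3.84 to Vldlr at 4.10, and the purine synthesis genes all lie between the dotted lines.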

How the data were processed

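RNA-seq libraries of cultured ferret (2) and mouse (2) astrocytes were analysed from the FPKM that the authors deposited, 1 value per gene and library. The authors sequenced stranded, polyA-selected paired-end libraries, aligned them with STAR 2.7.0f (tool versions per the labels) to the Ensembl genome of each species and computed FPKM with Cufflinks 2.2.1, scaled to mapped fragments and exon length. Gene symbols of the species were joined after both were put in capitals. Where a symbol had several values, which was the case for 7 ferret and 13 mouse symbols and none of the 10 genes, the highest mean was used. Values were set to log2(FPKM + 1) and fitted with limma 3.58.1 (R 4.3.3; moderated variances following the mean level), where the mean of either species reached an FPKM of 1. On simulated data for 10204 genes, this comparison called 98.5% of 200 genes changed by a log2 value of 1.5, and 0 others. The simulation gave every gene the same spread, taken from the mouse libraries, and no species difference to the unchanged genes. These could thus hardly pass the limit on size, and the 0 says little about the deposited values. The rate of false calls in the deposited values was not tested. In those values 88.6% of the genes tested passed the adjusted p alone. The ferret and mouse replicates had a median absolute log2 difference of 0.0810 and 0.0649. Mouse coordinates are those of GENCODE M21 on GRCm38, the build of the authors in another annotation release. Alternatives were a pseudocount of 0.1, no filter, 4 rescalings (to a sum of 1000000, to the mean sum, to the library median, added once the data had been seen, and quantile normalization), a replicate block, other rules for repeated symbols, and each library left out. The 10 genes, the lists and the naming rule were chosen with earlier results of these data known. The rule was to name every core gene and, in each related list, at least the called gene with the largest difference in each direction. The cell type markers were named in part only.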

Additional observations from a re-analysis of the deposited data

How the results depend on the processing

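The calls of Psat1, Aldh1l1 and Mthfd1 held under every alternative run. The other cases moved with the scaling. After setting each library to a sum of 1000000, to the mean library sum, by quantile normalization and to the library median (chosen after seeing the data), the log2 difference of Mthfd2 was -0.78, -0.70, -0.62 and -0.63 and it lost its call, that of Shmt2 was 0.31, 0.30, 0.32 and 0.38 and that of Aldh1l2 was 0.17, 0.15, 0.22 and 0.22, both with the sign turned. Over all genes 2197, 1954, 2076 and 2124 were called higher, against 1336 as deposited. Of the related lists, in the order of the first 3 rescalings, division genes called higher numbered 4, 3 and 4 instead of 0, methionine cycle genes 2, 2 and 2 instead of 1, glycine cleavage genes 1, 0 and 1 instead of 0, and ATF4 targets 3, 3 and 3 instead of 2. Those called lower numbered 0, 0 and 0 instead of 1 for other folate enzymes, 3, 2 and 1 instead of 3 for folate transport, 6, 5 and 5 instead of 5 for serine and glycine transport and use, 4, 4 and 4 instead of 5 for ATF4 targets, and 2, 2 and 1 instead of 2 for division genes. With a library left out, Mthfd2 ranged from -1.15 to -0.92, Shmt2 from -0.17 to 0.034 (without mouse replicate 1), other folate enzymes called lower from 0 to 1, ATF4 targets called lower from 4 to 5 and serine and glycine genes called lower from 5 to 6. With a pseudocount of 1 the ratio of Psat1 to Psph gave a log2 difference of -2.45 and that of Mthfd1 to Aldh1l1 gave 4.02. The cause of these shifts was not tested, beyond the rescaling itself.

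The replicate numbers are shared by both species through the labels alone, and deviations of same-numbered libraries had a correlation of 0.00995 across genes. The fit with a replicate block called 1342 genes higher and 3072 lower, against 1336 and 3069 without it, and changed no call among the 10 genes, whose log2 differences stayed at -2.00 for Psat1, -2.95 for Aldh1l1, 1.07 for Mthfd1 and -1.03 for Mthfd2. Depth was not analysed here, so low values such as those of Shmt1 and Folr2 are given without a counting interval.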

Other observations

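Several genes of the surrounding pathway had a value under their symbol in 1 species only and entered no comparison. In mouse astrocytes Gcsh, the hydrogen carrier of the glycine cleavage system, had 98.2 and 100.2 FPKM. Mthfs, which returns 5-formyltetrahydrofolate to use, had 10.5 and 10.2 FPKM. Slc25a32, the mitochondrial folate carrier, had 4.58 and 4.77 FPKM, Mtrr, which reactivates methionine synthase, had 6.52 and 4.83, and Cbs, which joins serine to homocysteine, had 5.37 and 7.69. Atf4 had 66.3 and 64.8 FPKM and its target Nupr1 had 69.4 and 70.1. In ferret astrocytes Mthfsd had 7.16 and 9.31 FPKM. A matched symbol in the other species was not used here, so nothing follows for the difference between species.

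Enzymes that are typical of liver were near 0 in both species. Ftcd, which takes carbon from histidine, had 0.0196 FPKM as the mouse mean and 0.108 as the ferret mean, Bhmt, which remethylates homocysteine with betaine, is listed at 0 in both ferret libraries and had a mouse mean of 0.0018, and Gnmt had 0.325 FPKM in ferret and 0.144 in mouse astrocytes. Mtr, the other enzyme that remethylates homocysteine, was above 0 in all 4 libraries.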
